A study of Macaca fascicularis with 2 samples.

Results

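The 10 genes described here encode chaperones, folding enzymes and regulators of the endoplasmic reticulum (ER): HSPA5, HSP90B1, PDIA4, SDF2L1, MANF, CRELD2, DNAJB9, HERPUD1, XBP1 and CALR. They were taken by symbol, and each matched 1 of the 28845 features in both libraries. The tissue was testis of the cynomolgus monkey (Macaca fascicularis), profiled with the 10x Genomics droplet assay for 3' ends. One library came from a testis moved surgically into the abdomen (UAT, unilateral abdomen testis), a model of cryptorchidism, and the other from the contralateral testis left in the scrotum (CST). The number of animals, their age and the time since surgery were not given in the sources used here, and no drug or genetic change is named for either testis. With 1 library per position there is no replicate check, so every difference below is between these libraries, and every interval covers counting error only.

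Secreted and membrane proteins fold in the ER, where chaperones hold unfinished chains, disulfide isomerases join cysteines, and misfolded chains are sent back to the cytosol for destruction. When folding demand outruns capacity, sensors in the ER membrane set off the unfolded protein response, which raises the transcription of most of these 10 genes. Plasma cells, which secrete antibody in bulk, are a classical setting of this pathway, and spermatids build the acrosome from proteins that pass through the ER.

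The UAT library held 12564 barcodes with a median of 7194 UMIs (unique transcript molecules), and the CST library 15952 barcodes with a median of 5439. After filtering and doublet removal, 11131 UAT cells and 13201 CST cells remained, of which 92.9% and 87.0% could be assigned to a class by their marker genes. No member gene was a marker. Classes are called by the markers they were gated on, as in "macrophage-like". Levels are UMIs of a gene per 1000000 UMIs of a class in a library (CPM). Because reads come from the 3' end, a level is compared within a gene and not between genes. Spermatid RNA was present outside spermatids in CST: the protamine PRM1 stood at 0.778 CPM in UAT macrophage-like cells and 1953 CPM in CST macrophage-like cells. Free RNA was estimated at 3.70% of UMIs in UAT, from the Leydig cell gene INSL3 in the other somatic classes. In CST it was estimated at 4.04%, from the spermatid genes PRM1, PRM2 and TNP1 in somatic classes. The estimates rest on different genes, so they are not the same measure. The libraries shared 50 barcodes.

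The first question was where each gene stood high. Over the 27 class and library profiles with at least 50 cells, 15 in UAT and 12 in CST, the peaks fell into a germ cell set and a secretory and immune set. HSPA5 (BiP, the ER form of HSP70) peaked at 1236 CPM in early spermatocyte-like cells of CST. The next profile, macrophage-like cells of UAT at 1173 CPM, had an overlapping interval. HSP90B1 (GRP94, the ER form of HSP90) peaked in the same spermatocytes at 3113 CPM, against a median of 643 CPM over the profiles. SDF2L1, a partner of HSPA5 and its J proteins, peaked there too at 841 CPM. So did CRELD2, a small ER protein with disulfide isomerase activity, at 62.5 CPM. DNAJB9, a J protein that presents clients to HSPA5, reached 207 CPM in that class and 195 CPM in pachytene and later spermatocytes, with overlapping intervals.

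The other members peaked elsewhere. PDIA4, a disulfide isomerase, was highest in undifferentiated spermatogonia-like cells, at 557 CPM in UAT and 808 CPM in CST, with a median of 69.6 CPM over the profiles. CALR (calreticulin, a chaperone that binds sugar chains and calcium) was highest in differentiating spermatogonia-like cells of CST at 1202 CPM. MANF, an ER-resident and secreted survival factor that binds HSPA5, was highest in pachytene and later spermatocytes of CST at 559 CPM. XBP1, the transcription factor made active by splicing of its RNA, and HERPUD1, a membrane protein of the degradation machinery, both peaked in plasma-like cells. The counts are per gene, so spliced and unspliced XBP1 are not told apart.

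**Figure D1:**
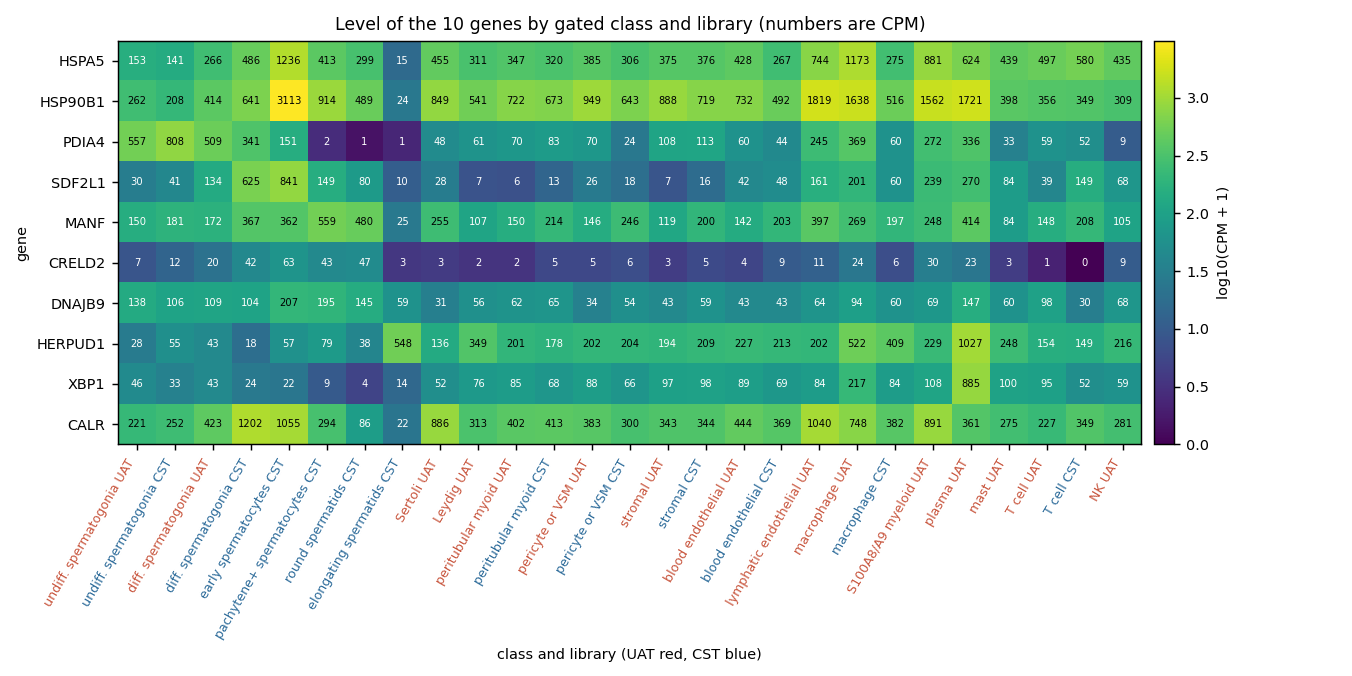
Levels of the 10 genes (rows) in each gated class and library with at least 50 cells (columns, UAT left of CST where both exist). Colour is log10(CPM + 1) and the printed numbers are CPM. HSP90B1 reaches 3113 CPM in early spermatocyte-like cells of CST, and XBP1 885 CPM in plasma-like cells of UAT.

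Plasma-like cells were recovered mainly from UAT, 87 cells against 1 in CST, so no ratio was formed. In the UAT cells, XBP1 stood at 885 CPM (95% Poisson interval 845 to 925) and was found in 86 of the 87 cells. The next profile, macrophage-like cells of UAT at 217 CPM, was 4.08-fold lower. HERPUD1 stood at 1027 CPM (985 to 1071) and was found in all 87 cells, and macrophage-like cells of UAT followed among UAT profiles at 522.5 CPM. MANF at 414 CPM, SDF2L1 at 270 CPM and DNAJB9 at 147 CPM were also highest there among the UAT profiles. For each of these the interval overlapped that of the next profile. HSP90B1, at 1721 CPM, came next after lymphatic endothelial-like cells, again with overlapping intervals. CALR, at 361 CPM, was below its median of 383 CPM over the UAT profiles.

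Of Sertoli-like cells, which nurse the germ cells, UAT held 705 and CST 37, and of Leydig-like cells, the androgen source, UAT held 168 and CST 15. In UAT Sertoli-like cells CALR stood at 886 CPM (868 to 905), HSP90B1 at 849 CPM and HSPA5 at 455 CPM. The few CST Sertoli-like cells had CALR at 848 CPM (730 to 981) and HSPA5 at 436 CPM (352 to 533). MANF was 255 CPM in UAT Sertoli-like cells and 464 CPM (377 to 564) in CST Sertoli-like cells. In Leydig-like cells HSPA5 was 311 CPM in UAT and 483 CPM in CST, and HERPUD1 was 349 CPM in UAT and 406 CPM in CST. Both CST sets had fewer than 50 cells, with 5 cells holding 83.0% of the HSPA5 UMIs in Sertoli-like cells and 48.2% in Leydig-like cells, and no comparison was drawn from them.

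Along the germ line of CST, the only library with meiotic and later germ cells in number, the folding genes did not share a single course. HSPA5 stood at 141 CPM in undifferentiated and 486 CPM in differentiating spermatogonia-like cells. It then stood at 1236 CPM in early spermatocytes, 413 CPM in pachytene and later spermatocytes, 299 CPM in round spermatids and 15.0 CPM in elongating spermatids. HSP90B1 had 208, 641, 3113, 914, 489 and 24.0 CPM over the same stages. Unlike HSPA5, it was higher in pachytene and later spermatocytes than in differentiating spermatogonia-like cells. By gated stage, both genes were thus highest in early spermatocytes and lowest in elongating spermatids.

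PDIA4 ran the other way. It stood at 808 CPM in undifferentiated and 341 CPM in differentiating spermatogonia-like cells, 151 CPM in early spermatocytes, and 1.75, 0.504 and 1.37 CPM in the 3 later stages. SDF2L1 stood at 41.0, 625 and 841 CPM in the first 3 stages, and at 149, 80.0 and 9.98 CPM afterwards. CALR, at 252 CPM in undifferentiated spermatogonia-like cells, stood at 1202 CPM in the differentiating ones and 1055 CPM in early spermatocytes, and at 294, 86.3 and 22.1 CPM in the later stages. XBP1 stood at 33.2 CPM in undifferentiated spermatogonia-like cells, 22.3 CPM in early spermatocytes, 4.26 CPM in round spermatids (3.61 to 4.99) and 14.1 CPM in elongating spermatids (13.1 to 15.3).

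Past the early spermatocyte gate and up to round spermatids, MANF was higher, and CRELD2 and DNAJB9 fell less than HSPA5 and HSP90B1 did. MANF was 362 CPM in early spermatocytes, 559 CPM in pachytene and later spermatocytes and 479.9 CPM in round spermatids, against 24.96 CPM in elongating spermatids. CRELD2 was 62.5, 43.3 and 47.0 CPM over the same 3 stages, and DNAJB9 207, 195 and 145 CPM. HERPUD1, like XBP1, was higher in elongating than in round spermatids, and by more: 38.2 CPM in round spermatids and 548 CPM (541 to 554) in elongating spermatids, where 2498 of 3907 cells held a UMI of it. After thinning each cell to 1000 UMIs, 33.4% of elongating spermatids had a HERPUD1 UMI (31.8 to 35.1, exact binomial), against 3.68% of round spermatids. The shares before thinning were 63.9% in elongating and 38.7% in round spermatids.

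Germ cells also make their own versions of these chaperones, which are known in the mouse from genes needed for sperm function. CLGN, the germ cell relative of calnexin, stood at 62.4 CPM in differentiating spermatogonia-like cells, 697 CPM in early spermatocytes and 1737 CPM in pachytene and later spermatocytes of CST. CANX, calnexin itself, stood at 379, 443 and 126 CPM in the same stages. CALR3, the germ cell relative of calreticulin, was 330 CPM in round and 463 CPM in elongating spermatids, where CALR was 86.3 and 22.1 CPM. PDILT, a germ cell isomerase, was 3.35 CPM in early spermatocytes, 292 CPM in round spermatids and 68.6 CPM in elongating spermatids. For both lectin pairs the ordinary gene was thus highest by the early spermatocyte gate and its germ cell relative later.

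**Figure D2:**
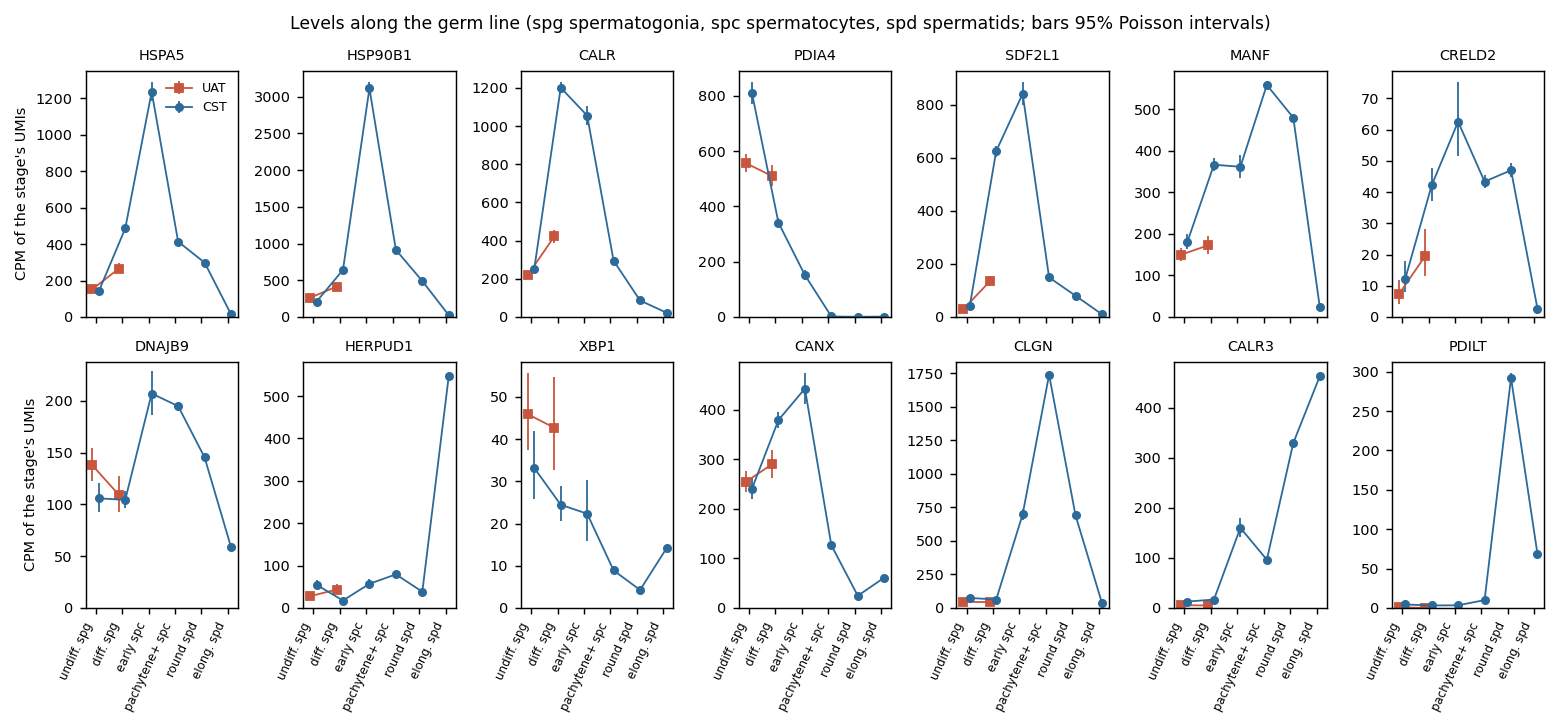
Levels along 6 germ cell stages (horizontal axis) in CPM of the stage's UMIs (vertical axis, from 0, own scale per gene) for the 10 genes and CANX, CLGN, CALR3 and PDILT. Red squares are UAT, which had at least 50 cells in the first 2 stages, blue circles CST, and bars 95% Poisson intervals, with points joined only to guide the eye. By gated stage HSPA5 and HSP90B1 peak in early spermatocytes, PDIA4 in undifferentiated spermatogonia and HERPUD1 in elongating spermatids.

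The early spermatocyte gate was not uniform. Of its 237 cells, 95 lay in 1 cluster (number 17), 67 in another (19) and 48 in number 18. HSPA5 stood at 1770.2 CPM in cluster 17 (1670.5 to 1874) and at 939 CPM in cluster 19 (880 to 1002). HSP90B1 ran the other way, at 1973 CPM in cluster 17 and 4036 CPM (3911 to 4163) in cluster 19, which the marker lists named pachytene and later and which held 3991 of the gate's 5577 HSP90B1 UMIs. PIWIL1, a piRNA pathway gene of later prophase, was 30.1 CPM in cluster 17, 489 CPM in cluster 18 and 498.5 CPM in cluster 19. HSP90B1 in cluster 18 was 2290 CPM (2009 to 2600), an interval that overlapped that of cluster 17 (1868 to 2083). The level of HSP90B1 thus did not follow that of PIWIL1 over all of these clusters. With the stage taken from whole clusters, HSP90B1 in early spermatocytes was 1461 CPM, below the UAT levels of lymphatic endothelial-like and plasma-like cells. SDF2L1 was then 1302 CPM in early spermatocytes, XBP1 50.3 CPM, above its gated level in any other germ stage of CST, and HERPUD1 17.1 CPM. In elongating spermatids the levels also depended on how cells were averaged: HSPA5 was 62.1 CPM as a mean over cells and 37.2 CPM with no doublet removal.

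Between the libraries, 8 classes had at least 50 cells on each side. A gene counted as measured at 20 CPM or more in either library, and as higher or lower when the ratio of UAT to CST, with 10 CPM added to both, passed 1.5-fold. Macrophage-like cells had the most members higher of the 8 classes: all 10 genes were measured, 7 were at least 1.5-fold higher in UAT and none was lower. Of all 7356 features measured there, 11.7% were at least 1.5-fold higher and 15.7% lower. The median log2 ratio was 1.17 over the 10 genes and -0.02 over all features. CRELD2 reached the 20 CPM minimum only through UAT.

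The size differed by gene. HSPA5 had 1173 CPM in the 581 UAT macrophage-like cells and 275 CPM in the 83 CST cells, a ratio of 4.27 (95% interval 3.47 to 5.31). HSP90B1 had 1638 CPM in UAT and 516 CPM in CST, a ratio of 3.17 (2.73 to 3.71). PDIA4 had 369 CPM in UAT and 59.7 CPM in CST, a ratio of 6.18 (3.99 to 10.1), the largest of the 10. The chaperone pair and the isomerase thus had intervals well clear of 1.

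SDF2L1, at 201 CPM in UAT and 59.7 CPM in CST, had a ratio of 3.37 (2.17 to 5.55). XBP1, at 217 CPM in UAT and 83.6 CPM in CST, had a ratio of 2.59 (1.78 to 3.92). CALR, at 748 CPM in UAT and 382 CPM in CST, had a ratio of 1.96 (1.64 to 2.36). CRELD2 rested on 91 UMIs in UAT and 2 in CST, and its ratio of 3.95 had an interval of 1.06 to 33.1. The remaining genes did not pass 1.5-fold: DNAJB9 had a ratio of 1.57 before the added 10 CPM (1.0 to 2.60), MANF 1.36 (1.06 to 1.78) and HERPUD1 1.28 (1.07 to 1.53).

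**Figure D3:**
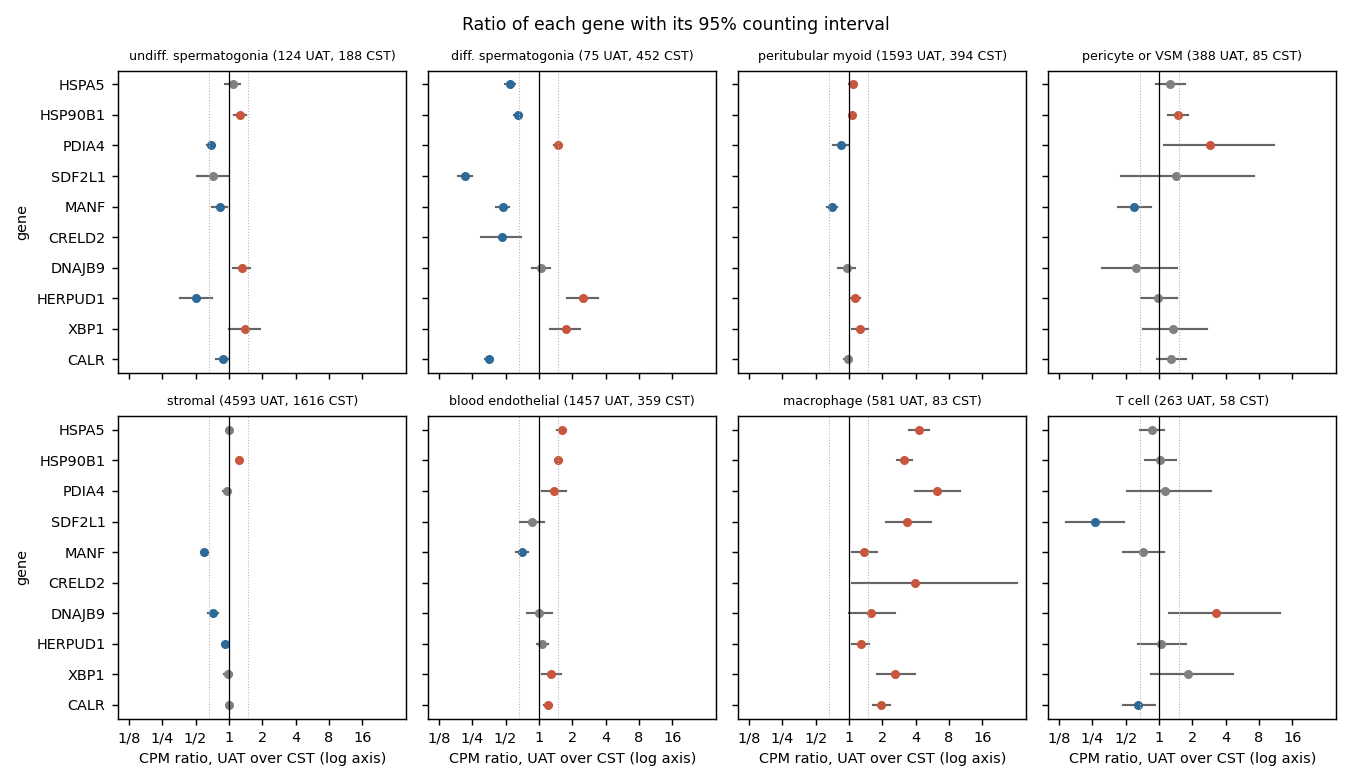
Ratio of CPM, UAT over CST, on a log axis for each gene (rows) in the 8 classes compared, with cell numbers in the panel titles. Points are red where the 95% counting interval (bar) lies above 1, blue where it lies below 1 and grey where it includes 1, dotted lines mark 1.5-fold, and genes under 20 CPM in both libraries are left out. Macrophage-like cells have all 10 points right of 1, and differentiating spermatogonia-like cells have SDF2L1 and CALR far left.

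Single cells showed how the macrophage difference was spread. The summed UMIs of the 10 genes per 10000 UMIs of a cell had quartiles of 19.3, 32.9 and 62.7 in UAT macrophage-like cells, and 10.5, 16.2 and 23.2 in CST ones. The highest value was 462 in UAT and 71.9 in CST, from 581 and 83 cells, and a highest value tends to rise with cell number. The upper quartile of UAT was below the highest CST value, so most UAT cells lay within the CST range and some beyond it. At 1000 UMIs per cell, HSPA5 was found in 51.2% of UAT macrophage-like cells (47.0 to 55.4) and 18.1% of CST ones (10.5 to 28.0). Before thinning the shares were 85.9% in UAT, at a median of 5573 UMIs, and 49.4% in CST, at a median of 3823. Elongating spermatids, where HSPA5 was lowest, had 3.68% at the same thinned depth, at a median of 4521 UMIs before thinning. The 5 cells richest in HSPA5 held 8.82% of its UMIs in UAT and 39.1% in CST.

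Other RNAs differed between the same cells. The 12 markers of elongating spermatids summed to 3.63 CPM in UAT macrophage-like cells, with 6 of 12 found, and to 5123 CPM in CST, with all 12 found. The plasma list summed to 56.3 CPM in UAT, with 6 of 7 found, and to 20.9 CPM in CST, with 4 of 7 found, and POU2AF1, a plasma and B cell regulator, was at 0 in both. Immediate early genes (FOS, JUN and relatives) summed to 23889 CPM in UAT and 18158 CPM in CST. With the free RNA of each library taken out, and 10 CPM added, the log2 ratio was 2.09 for HSPA5 and 2.46 for PDIA4, against 2.06 and 2.44 with it left in. The part of the other differences in the result was not tested.

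**Figure D4:**
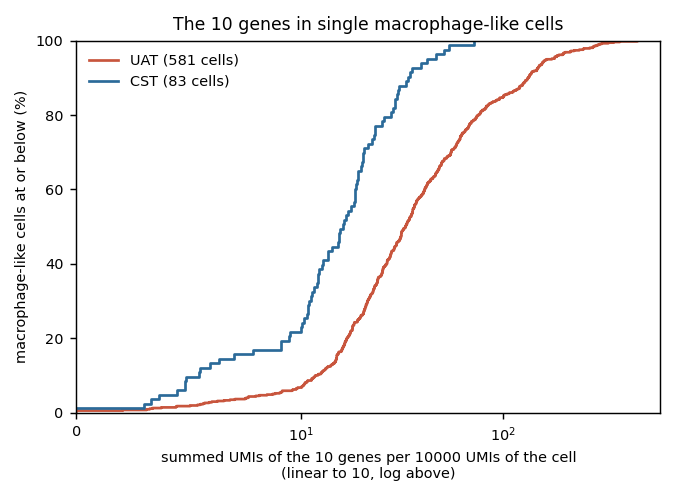
Share of macrophage-like cells (vertical axis, percent) at or below a given sum of UMIs of the 10 genes per 10000 UMIs of the cell (horizontal axis, linear to 10 and log above), in UAT (red, 581 cells) and CST (blue, 83 cells). The UAT curve lies to the right, with medians of 32.9 in UAT and 16.2 in CST.

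Other ER genes were counted in macrophage-like cells by role, from lists of 75 genes. Of the folding and disulfide enzymes, 13 of the 19 measured were at least 1.5-fold higher in UAT and none was lower, beside 11.7% and 15.7% of all features, with a median log2 ratio of 0.77. PDIA6, a disulfide isomerase, had 405 CPM in UAT and 152 CPM in CST, a ratio of 2.66 (2.01 to 3.59). FKBP2, a prolyl isomerase, had a ratio of 2.66, DNAJC3, a J protein of the unfolded protein response, 2.25, and P4HB, the classical disulfide isomerase, 2.22. HYOU1, an ER chaperone that exchanges nucleotide for HSPA5 and was picked after its value was seen, had 86.4 CPM in UAT and 14.9 CPM in CST, on 5 UMIs in CST. It was among the 13 and reached the 20 CPM minimum only through UAT. Other genes, and any of all features, could be counted through a single library in the same way.

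The other roles had shares of higher genes nearer to that of all features, of which 11.7% were higher and 15.7% lower. Of the degradation genes 3 of 15 were higher, of the sensors and transcription factors 1 of 6 (ERN1, on 4 UMIs in CST), and of the integrated stress response genes 1 of 6 (PPP1R15B, on 3 UMIs in CST), with none lower in these roles. Those few were named because so few passed, and both ERN1 and PPP1R15B reached the 20 CPM minimum only through UAT. Of the translocation and export genes 3 of 18 were higher and 2 lower: KDELR2, which returns escaped chaperones to the ER, with 93.1 CPM in UAT and 191 CPM in CST, and SPCS1, a signal peptidase subunit, with 139 CPM in UAT and 236 CPM in CST. The median log2 ratio was 0.32 for degradation, 0.46 for sensors and transcription factors and 0.37 for the integrated stress response. It was 0.14 for translocation and export and -0.02 over all features. The folding enzymes, at 0.77, had the highest median of the 5 roles in these cells.

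**Figure D5:**
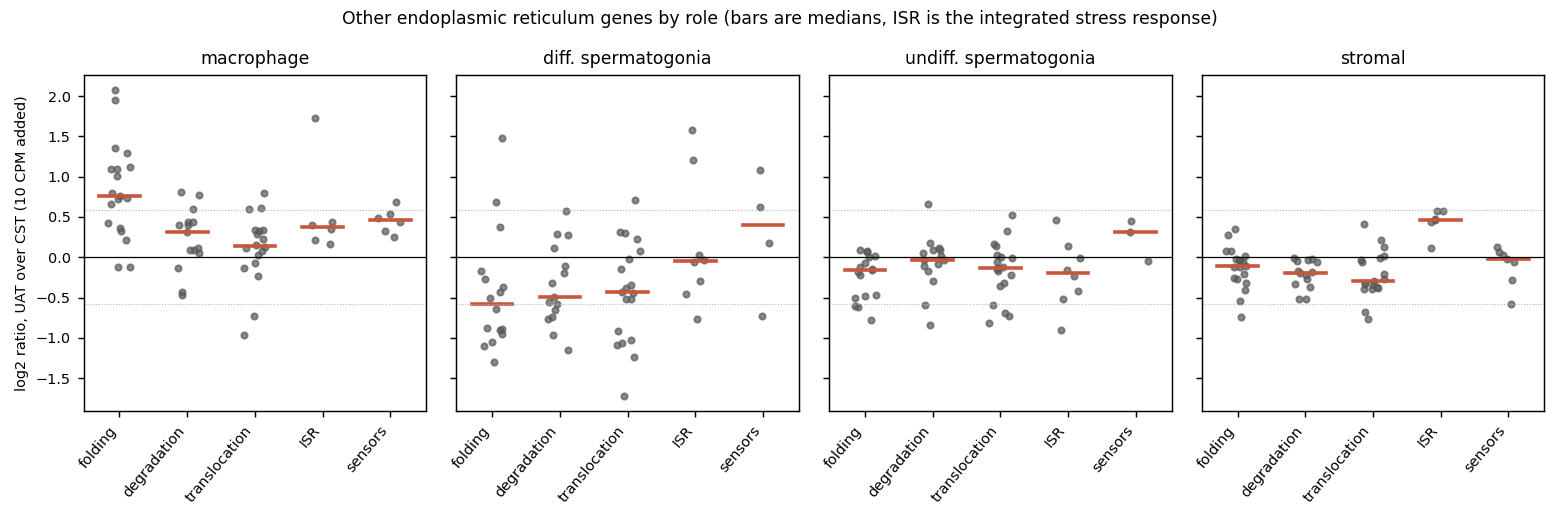
Log2 ratios, UAT over CST with 10 CPM added (vertical axis), of the other ER genes by role (horizontal axis) in 4 classes. Each point is a gene, red bars are medians and dotted lines mark 1.5-fold. Folding enzymes lie mostly above 0 in macrophage-like cells (median 0.77) and mostly below 0 in differentiating spermatogonia-like cells (median -0.58).

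Differentiating spermatogonia-like cells showed lower levels of several members in UAT, but the 2 libraries filled the gate with different cells. Of the 10 genes, 6 were at least 1.5-fold lower in UAT and 2 higher, where 19.1% of all 8341 features were lower and 14.0% higher. The median log2 ratio was -0.72 over the members and -0.09 over all features. CRELD2, counted as lower, reached the 20 CPM minimum only through CST, and HERPUD1, counted as higher, only through UAT. SDF2L1 had 134 CPM in the 75 UAT cells and 625 CPM in the 452 CST cells, a ratio of 0.215 (0.185 to 0.249). CALR had 423 CPM in UAT and 1202 CPM in CST, a ratio of 0.352 (0.323 to 0.382). CRELD2, MANF, HSPA5 and HSP90B1 had ratios of 0.465, 0.470, 0.547 and 0.646. HERPUD1 was higher, with 43.4 CPM in UAT and 17.5 CPM in CST, and so was XBP1, with 42.7 CPM in UAT and 24.4 CPM in CST. For these 2 genes, 5 cells held 54.8% and 62.3% of the UAT UMIs, and without the 5 richest cells of each library the XBP1 log2 ratio was -0.17.

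Most of the UAT cells of this gate, 65 of 75, lay in cluster 9, and most of the CST cells, 321 of 452, in cluster 16. The markers of the class summed to 1778 CPM in UAT and 3567 CPM in CST. Within cluster 9 alone, with 65 UAT and 118 CST cells, the marker sums were 1572 CPM in UAT and 1855 CPM in CST, and only SDF2L1 and CALR were at least 1.5-fold lower among 9 measured members (10.2% of all features). There SDF2L1 had 74.7 CPM in UAT and 217 CPM in CST, a ratio of 0.345 (0.269 to 0.438). CALR had 325 CPM in UAT and 569 CPM in CST, a ratio of 0.571 (0.504 to 0.647). HSPA5 had 198 CPM in UAT and 233 CPM in CST, and its interval (0.713 to 1.01) included 1. PDIA4 changed sides, with a ratio of 1.49 over the whole gate and 0.772 within the cluster. XBP1 was the 1 member past 1.5-fold upwards there with 10 CPM added (7.66% of all features), at a ratio of 1.70 without it (1.08 to 2.73). HERPUD1 (47.7 CPM in UAT and 29.5 CPM in CST, a ratio of 1.62, interval 1.05 to 2.53) and MANF (143 CPM in UAT and 216 CPM in CST, a ratio of 0.663, interval 0.544 to 0.805) missed 1.5-fold only with the 10 CPM added. HSP90B1 had a ratio of 0.807, and CRELD2 was under 20 CPM in both libraries there.

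Of the other ER genes over the whole gate, 7 of the 62 measured were higher and 22 lower in UAT, beside 14.0% and 19.1% of all features. Within cluster 9 the counts were 1 higher and 9 lower of 62, beside 7.66% and 10.2% of all features, and 1 of 17 folding enzymes was lower there, against 8 of 16 over the whole gate. Over the whole gate SPCS3, a signal peptidase subunit, had 147 CPM in UAT and 507 CPM in CST, a ratio of 0.290 (0.251 to 0.334). PDIA6 and PDIA3, both disulfide isomerases, had ratios of 0.393 and 0.454, and SSR4, part of the translocon, 0.409.

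Undifferentiated spermatogonia-like cells, nearly all of them in cluster 9, differed less; the class held 124 UAT and 188 CST cells. Of 9 measured members none was at least 1.5-fold higher and 1 was lower, where 4.18% of all features were higher and 8.02% lower. HERPUD1 was that gene, with 27.7 CPM in UAT and 54.6 CPM in CST, a ratio of 0.508 (0.365 to 0.699). PDIA4, highest in this class, had 557 CPM in UAT and 808 CPM in CST, a ratio of 0.689 (0.639 to 0.742) that fell short of 1.5-fold. HSPA5 had 153 CPM in UAT and 141 CPM in CST, with an interval of 0.923 to 1.27. Of the other ER genes 1 of 62 was higher and 10 lower. ERP29, a folding factor, had 372 CPM in UAT and 648 CPM in CST, and SSR4 had 137 CPM in UAT and 250.1 CPM in CST.

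Blood endothelial-like cells had 1 of 9 measured members at least 1.5-fold higher in UAT and none lower, where 3.58% of all features were higher and 10.2% lower. That member was HSPA5, with 428 CPM in the 1457 UAT cells and 267 CPM in the 359 CST cells, a ratio of 1.60 (1.45 to 1.77). HSP90B1 had 732 CPM in UAT and 492 CPM in CST, a ratio of 1.49 (1.38 to 1.61). Their immediate early genes summed to 20199 CPM in UAT and 12183 CPM in CST, and the part of this in the result was not tested. FKBP2 had 141 CPM in UAT and 80.2 CPM in CST.

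Peritubular myoid-like cells, the contractile wall of the tubule, had no member past 1.5-fold in either direction among 8 measured (5.19% of all features higher and 11.4% lower). HSPA5 had 347 CPM in 1593 UAT cells and 320 CPM in 394 CST cells, a ratio of 1.08 (1.0 to 1.17). Of the other ER genes in this class 5 of 62 were higher and 5 lower. The stress response factors CEBPB, with 675 CPM in UAT and 310.1 CPM in CST, and ATF3, with 471 CPM in UAT and 247 CPM in CST, were higher. QSOX1, a sulfhydryl oxidase, with 54.6 CPM in UAT and 104 CPM in CST, and SEC24D, a coat protein of export vesicles, with 81.5 CPM in UAT and 152 CPM in CST, were lower. Immediate early genes, ATF3 among them, summed to 12540.2 CPM in UAT and 7182 CPM in CST in these cells, and their part in the result was not tested. Stromal-like cells, the most numerous class with 4593 UAT and 1616 CST cells, had 1 of 8 measured members lower and none higher (11.0% and 3.14% of all features). HSPA5 had 375 CPM in UAT and 376 CPM in CST, with an interval of 0.956 to 1.04, and CALR 343 CPM in UAT and 344 CPM in CST. The libraries' cells of these 2 classes lay in different clusters: stromal-like cells of UAT mostly in clusters 3 and 7 and of CST in 24, and peritubular myoid-like cells of UAT mostly in cluster 2 and of CST in 25.

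T cell-like cells had 2 of 9 measured members higher (DNAJB9 and XBP1) and 2 lower (SDF2L1 and CALR), in a class of 263 UAT and 58 CST cells where 17.5% of all features were higher and 29.7% lower. SDF2L1 had 38.9 CPM in UAT and 149 CPM in CST, a ratio of 0.261 (0.146 to 0.481), and DNAJB9 97.8 CPM in UAT and 29.7 CPM in CST on 4 CST UMIs. Pericyte or vascular smooth muscle-like cells, 388 in UAT and 85 in CST, had 1 of 9 measured members higher and 1 lower (15.3% and 27.5% of all features). PDIA4 was the higher one, with 70.0 CPM in UAT and 24.0 CPM in CST on 4 CST UMIs, and MANF the lower. In both classes the share of members past 1.5-fold was near or below that of all features.

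Of the 10 genes, MANF, HSP90B1 and XBP1 had the most intervals on the same side of 1. The share of all features with such intervals is not given here, so these counts were not read as particular to the genes. Small ratios could also leave out 1, as HSP90B1 did in peritubular myoid-like cells at 1.07 (1.02 to 1.13). MANF had an interval below 1 in 6 of the 8 classes and above 1 in macrophage-like cells alone. In stromal-like cells it had 119 CPM in UAT and 199.8 CPM in CST, a ratio of 0.593 (0.559 to 0.631), and it was 0.621 with free RNA taken out and 10 CPM added. Its ratio was 0.593 (0.423 to 0.850) among pericyte or vascular smooth muscle-like cells, in peritubular myoid-like cells 0.701 (0.635 to 0.775) and in blood endothelial-like cells 0.699 (0.620 to 0.790). HSP90B1 had an interval above 1 in 6 of the 8 classes and below 1 in differentiating spermatogonia-like cells, with 888 CPM in UAT and 719 CPM in CST in stromal-like cells. XBP1 had an interval above 1 in 5 classes and below 1 in none. The 5 include differentiating spermatogonia-like cells, where its log2 ratio changed sign in 3 alternative settings. Among the 8 classes compared, the genes of this set therefore did not move as a block outside macrophage-like cells.

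A pair of small classes had too few CST cells to compare. Lymphatic endothelial-like cells, 72 in UAT and 32 in CST, had HSP90B1 at 1819 CPM (1706 to 1937) in UAT and 575 CPM (449 to 726) in CST, and HSPA5 at 744 CPM in UAT and 276 CPM in CST. There CALR stood at 1040 CPM in UAT and 543 CPM in CST, and SDF2L1 at 161 CPM in UAT and 40.5 CPM in CST. DNAJB9 (63.7 CPM in UAT, 64.8 CPM in CST) and CRELD2 (11.2 CPM in UAT, 32.4 CPM in CST) were not higher in UAT. Myeloid-like cells gated on S100A8, S100A9 and related genes, 60 in UAT and 16 in CST, had HSP90B1 at 1562 CPM in UAT and 344 CPM (204 to 543) in CST. They had HSPA5 at 881 CPM in UAT and 267 CPM in CST, and CALR at 891 CPM in UAT and 210 CPM in CST. HERPUD1 (229 CPM in UAT, 401 CPM in CST) and XBP1 (108 CPM in UAT, 115 CPM in CST) were not higher in UAT. In the UAT myeloid-like cells 5 cells held 55.5% of the HSP90B1 UMIs, and the mean over cells was 986 CPM. In the CST ones 5 cells held 94.4% of 18 HSP90B1 UMIs, 78.6% of 14 HSPA5 UMIs and all 11 CALR UMIs. No comparison was drawn from these classes.

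The profile most like that of HSPA5 over the 27 profiles, among 10924 genes and by Pearson's r of log2(CPM + 10), was HSP90B1 (r = 0.89), and other close ones were TMCO1 (0.84), CALR (0.81) and MYDGF (0.80). Within the set, HERPUD1 (0.01) and DNAJB9 (0.11) were least like HSPA5. The genes most like the mean of the 10 were SPCS3 (0.90), LMAN2 (0.82), SPCS2 (0.80) and OSTC (0.80). The profiles share 2 libraries and are not independent, so these values only describe them.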

How the data were processed

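The authors deposited raw UMI counts of each gene in each barcode, 1 matrix per library (per the file headers). The matrix headers name Cell Ranger 5.0.0, and the submitters' processing notes 3.0.1 with the mouse build mm10. The features carry macaque symbols, so no coordinates are given. Per the labels' protocols, tissue was digested at 37 °C for at most 30 min and passed at over 80% viability.

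Barcodes with at least 500 genes were kept, and simulated doublets were used to remove 1221 UAT and 1800 CST cells. Each cell was gated to the class with the best mean marker score, after 10% free RNA was discounted. Undifferentiated and differentiating spermatogonia, T and NK cells, and blood and lymphatic endothelium were pairs split by the higher score alone. A gate needed 3 detected markers, a score of 0.1 and a lead of 1.25 over the best class outside its own pair. These limits were set after the data were seen, and the members, gene lists and markers were chosen with earlier results of these data known. Leiden clusters (scanpy 1.11.5, resolution 1, no integration, members left out of the variable genes) served as an alternative.

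UMIs were summed per class and library into CPM with exact Poisson intervals. Ratios carry exact conditional binomial 95% intervals, and shares exact binomial ones (scipy 1.17.1). With 1 library per position there is no test and no p-value. Counting precision follows the totals, 111047299 UMIs in UAT and 197225937 in CST, and UMI intervals leave out differences between animals and dissociations. The ratio step was tested on simulated data. Named ER genes were up to 4 per class, those with the largest log2 ratio at 100 CPM or more and an interval without 1. Of 11528 features with only a LOC name, 721 took a symbol from a RefSeq gene table. A further alternative, cluster 9 alone, was chosen after the data were seen. Genes like HSPA5 or the mean of the members were the 5 with the highest correlation for each, of which 1 gene is not reported here.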

Additional observations from a re-analysis of the deposited data

Results flagged for a closer look

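For 6 genes the ratio of UAT to CST passed 1.5-fold upwards in one class and downwards in another, with both intervals clear of 1. The share of all features that did so is not given here, so this count was not read as particular to the set. CRELD2 reached the 20 CPM minimum in both classes, and HERPUD1 in the differentiating class, only through the library where it was higher. None of these differences was tested, since each class had 1 library per position. Between macrophage-like and differentiating spermatogonia-like cells, the log2 ratios of SDF2L1 (1.60 and -2.14) differed by 3.74, those of HSPA5 (2.06 and -0.85) by 2.90 and those of CALR (0.95 and -1.49) by 2.44. Over the same pair of classes the log2 ratios of HSP90B1 (1.65 and -0.62) differed by 2.27 and those of CRELD2 (1.07 and -0.82) by 1.89. HERPUD1 differed by 1.73 between differentiating and undifferentiated spermatogonia-like cells (0.96 and -0.78). In cluster 9 alone the differentiating cells had log2 ratios of -1.42 for SDF2L1, -0.22 for HSPA5, -0.79 for CALR, -0.30 for HSP90B1, -0.23 for CRELD2 and 0.55 for HERPUD1.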

How the results depend on the processing

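In macrophage-like cells the median log2 ratio of the members ran from 1.02 to 1.55 over 14 alternatives, with 7 to 9 members higher and 0 lower. The 9 came without the 5 top cells of each gene. That setting took cells out for the members only, so its counts here and below have no share of all features to stand beside. For the other settings the counts are given without that share. Of 856 recomputed ratios of single members, 776 stayed within their counting interval, 75 moved beyond it and 5 changed sign past a 1.5-fold call: CALR in T cell-like cells (0.23 without the 5 top cells of each gene), HERPUD1 in differentiating spermatogonia-like cells (-0.0945 thinned to 1000 UMIs), and XBP1 in these spermatogonia (-0.10 under a stricter gate, -0.17 as a mean over cells and -0.17 without the 5 top cells). In differentiating spermatogonia-like cells the median was -0.93 without the 5 top cells and -0.30 in cluster 9 only. Members higher there were 1 with Leiden clusters, with free RNA taken out and in cluster 9 only, and 0 as a mean over cells, thinned and without the 5 top cells. Members lower were 2 in cluster 9 only.

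Counts were small elsewhere. T cell-like cells had 1 member higher when thinned and 4 without the 5 top cells. Members lower in these cells were 0 when thinned, and 1 with Leiden clusters, without doublet removal, with mitochondrial and ribosomal genes out of the total, as a mean over cells and without the 5 top cells. Blood endothelial-like cells had 2 higher under median-of-ratios scaling, without mitochondrial and ribosomal genes and without the 5 top cells. Pericyte or vascular smooth muscle-like cells had 3 higher with Leiden clusters, thinned and without the 5 top cells, and 2 under a stricter gate, median-of-ratios scaling, without mitochondrial and ribosomal genes and as a mean over cells. Members lower there were 0 at a minimum of 1000 genes and 2 with Leiden clusters, without doublet removal, as a mean over cells and thinned. Stromal-like cells had medians of 0.0696 without mitochondrial and ribosomal genes and -0.13 thinned, and 2 members lower without doublet removal, at 5 CPM or more and with no minimum. Undifferentiated spermatogonia-like cells when thinned had a median of 0.29, with 1 member higher and 3 lower. The cause was not tested in any of these.

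Of 770 recomputed levels, 160 left their counting interval, 31 of these by over 1.5-fold, of which 15 were in elongating spermatids. T cell-like cells at 1000 genes and undifferentiated spermatogonia-like cells from Leiden clusters had under 50 cells in a library and gave no value. No paired analysis was possible because each position had 1 library, so no result comes from a test.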
